A study of Arabidopsis thaliana with 357 samples.

Results

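The comparison described here is that of Arabidopsis sid2-2 plants with wild type Col-0 plants over a time course after flg22. Its members are the 42 libraries whose concise genotype name is JEPs (sid2-2, 21 libraries) or JEPS (Col-0, 21 libraries), of 357 libraries in all. In these names J, E, P and S stand for the jasmonate, ethylene, PAD4 and salicylic acid (SA) sectors of immune signaling, and a lower case letter marks a sector that a mutation has removed. Col-0 has all 4 sectors and sid2-2 lacks the SA sector alone. There were 3 replicates per genotype at each of 7 times, which were 0, 1, 2 and 3 h and then 5, 9 and 18 h. At every time after 0 h the leaves had been infiltrated with 1 µM flg22, a peptide of bacterial flagellin, whereas the 0 h leaves of both genotypes were left untouched. A change from 0 h therefore holds the effect of the infiltration and of the hour of day together with that of flg22. The fls2 mutant, which lacks the flg22 receptor and received the same infiltration, is given beside the results for that reason. For comparison the report also draws on the single mutants dde2-2 (jEPS), ein2-1 (JePS) and pad4-1 (JEpS), which lack the jasmonate, ethylene and PAD4 sector, and on the double mutants dde2-2 sid2-2 (jEPs), ein2-1 sid2-2 (JePs) and pad4-1 sid2-2 (JEps), with 21 libraries of each at the same times. Plants were 31 to 32 days old and had grown in a 12 h photoperiod at 22 °C and 75% relative humidity. Each replicate was a pool of 3 leaves from 1 plant in each of 4 experiments, so that p-values measure the spread between such pools. Each mutant is represented by a single allele. The levels are from whole leaves, in which fewer cells of a type and less RNA per cell cannot be told apart.

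SA is the hormone of defense against microbes that feed on living tissue. Most of the SA made after infection comes from isochorismate, which the plastid enzyme isochorismate synthase 1, the product of SID2, makes from chorismate. EDS5 exports the intermediate from the plastid and PBS3 couples it to glutamate, after which SA is released. SA is perceived by the NPR proteins. NPR1 joins TGA transcription factors, which bind the letters TGACG in promoters, and turns on genes such as PR1 and several WRKY factors, which bind the letters TTGAC. Sugar conjugation and hydroxylation of SA lower its level again. EDS1 and PAD4 act upstream of SID2 and are themselves raised by SA.

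Among genes called lower at 18 h by the rule given below, the sid2-2 response lay furthest below that of wild type in PCC1, AT3G22235, WRKY54 and WRKY70. The 250 bases before the annotated start of these 4 genes, on which the comparison turned, are shown here. They are RefSeq sequence of the TAIR10.1 assembly, printed 5′ to 3′ on the strand of the gene, and all 4 genes lie on the minus strand. Capitals mark TGACG or TTGAC on either strand (CGTCA and GTCAA are the reverse complements), and in TTGACG the motifs overlap and both were counted.
PCC1 (AT3G22231), chr3:7846834-7847083: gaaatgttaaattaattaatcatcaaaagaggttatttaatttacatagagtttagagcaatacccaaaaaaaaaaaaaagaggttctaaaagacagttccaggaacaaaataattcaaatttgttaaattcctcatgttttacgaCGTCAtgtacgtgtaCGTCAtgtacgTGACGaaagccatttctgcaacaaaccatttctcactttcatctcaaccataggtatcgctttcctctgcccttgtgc
AT3G22235, chr3:7855815-7856064: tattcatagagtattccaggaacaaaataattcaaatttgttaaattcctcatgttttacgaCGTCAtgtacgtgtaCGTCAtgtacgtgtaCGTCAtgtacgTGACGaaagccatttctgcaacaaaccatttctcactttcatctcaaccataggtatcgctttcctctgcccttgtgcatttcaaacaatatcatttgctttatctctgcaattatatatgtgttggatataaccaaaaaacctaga
WRKY70 (AT3G56400), chr3:20910624-20910873: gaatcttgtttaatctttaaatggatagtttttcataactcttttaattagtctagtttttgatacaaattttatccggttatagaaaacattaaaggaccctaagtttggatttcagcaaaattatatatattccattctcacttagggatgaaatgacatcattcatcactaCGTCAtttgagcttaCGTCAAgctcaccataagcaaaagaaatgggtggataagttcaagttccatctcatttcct
WRKY54 (AT2G40750), chr2:17002529-17002778: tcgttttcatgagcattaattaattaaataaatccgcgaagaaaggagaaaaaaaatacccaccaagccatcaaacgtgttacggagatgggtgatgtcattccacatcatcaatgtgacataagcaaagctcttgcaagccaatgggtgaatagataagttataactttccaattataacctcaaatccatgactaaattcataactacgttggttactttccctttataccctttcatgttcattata
The PCC1 window held TGACG 3 times and the AT3G22235 window 4 times. The WRKY70 window held TGACG 2 times and TTGAC 1 time, and the WRKY54 window held neither. PCC1 and AT3G22235 are neighboring genes whose windows share an unbroken run of 105 bases. Only reads that matched a single gene were counted, so reads from stretches that such copies share were lost, and the split of reads between PCC1 and AT3G22235 is uncertain.

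Sequencing depth was 762242 to 3564855 reads per JEPS library and 551449 to 3040421 per JEPs library. Counts were scaled by the 90th percentile count of each library, which was 37 to 250 in these libraries, to a common value of 300, and the scaled values are called normalized counts below. Tag-Seq gives about 1 read per transcript, so that normalized counts are not divided by length. Of 33600 genes, 11848 passed the filter on low counts and were tested. Differences are on the log2 scale with their standard errors (SE). Each group mean is from 3 replicates, and the spread of each gene was estimated over all 119 groups, not from the compared groups alone. The transcript response is the level at a time minus that at 0 h, and the response difference is the response in JEPs minus that in JEPS. It was called where the q-value of edgeR's quasi-likelihood test was under 0.05 and the absolute log2 difference above 1, with q-values pooled over the comparisons of 15 genotypes with JEPS. The 6 response differences of a gene share the 0 h libraries, so the level difference at the same time, with Benjamini-Hochberg adjusted p-values, is given beside them. Benjamini-Hochberg values over JEPs and JEPS alone (BH alone) are stricter: they call a response difference up to an unadjusted p of 2.32e-05, and the pooled q up to 0.000384.

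Several libraries stood apart from the others of their group. JEPS replicate 1 at 0 h had 4336 normalized counts of PCC1 against 588 and 471, and 1564 of LURP1 against 138 and 147. JEPs replicate 2 at 18 h had 108 reads of PR1 against 2 and 0. JEPS replicate 2 at 2 h had 17 reads of SID2 against 176 and 275. JEPS replicate 2 at 18 h had the lowest mean correlation with its group (0.800, highest of all 0.946). The leaf label fitted the markers: 5 mesophyll genes summed to 10154.5 to 315296 normalized counts in JEPS and 16039.8 to 315258 in JEPs, all 3 seed markers were at 0, as were 2 of 3 trichome and 1 of 3 flower markers, and the trichome, flower and seed markers were too low to be tested. Of the other lists all mesophyll and phloem markers, 2 of 3 guard cell and 1 of 3 root markers were tested, and none of these passed between genotypes. The 3 root markers summed to 629 reads in JEPS and 432 in JEPs.

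SID2 (chromosome 1, 28070295 to 28074177, plus strand, TAIR10.1) separated the genotypes in every library. In JEPS it had 50, 59.2 and 44.7 normalized counts at 0 h, 773, 1106 and 682 at 5 h, and 503, 478 and 605 at 18 h. In JEPs it had 6.98, 0 and 26.7 at 0 h, 13.6, 14.7 and 19.6 at 5 h, and 0, 11.5 and 16.3 at 18 h. No JEPs library had more than 14 SID2 reads, and the genotypes did not overlap at any time. In fls2 at 18 h the values were 70.2, 77.8 and 69.2. The level difference passed the test at each time after 0 h, from -4.82 ± 0.77 at 1 h to -5.51 ± 0.74 at 18 h (adjusted p = 1.65e-12), and not at 0 h (-2.42 ± 0.94, adjusted p = 0.21). The response difference of SID2 itself did not pass (q from 0.308 to 0.638), since the few reads at 0 h left it a wide error. Tag-Seq reads the 3′ end of a transcript, and whether that end lies in the part altered by sid2-2 is not given in the sources used here.

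**Figure D1:**
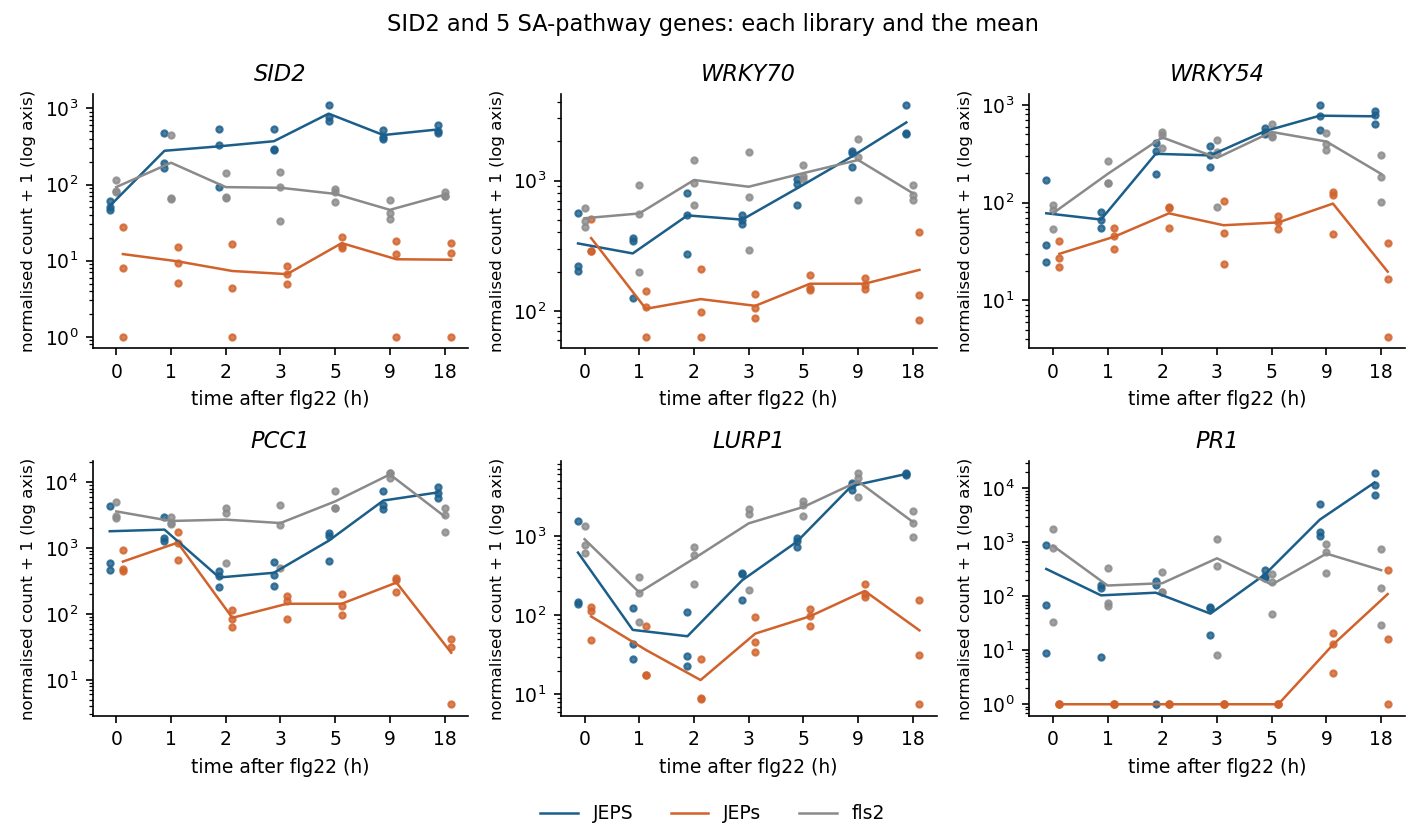
Normalized counts plus 1 (log axis) against hours after flg22 for SID2, WRKY70, WRKY54, PCC1, LURP1 and PR1. Each point is 1 library, lines join the means of 3 replicates, and colors mark JEPS, JEPs and fls2. SID2 reached 682 to 1106 in JEPS at 5 h and 13.6 to 19.6 in JEPs at that time. WRKY70 in fls2 (710 to 916 at 18 h) lies between JEPS and JEPs. Times are evenly spaced on the axis.

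Few genes were called different in response between sid2-2 and wild type during the first hours after flg22, and most calls fell at 9 and 18 h. The response of 3 genes was called different at 1 h (0.0253% of the genes tested), of 2 genes at 2 h (0.0169%) and of 3 genes at 3 h (0.0253%). The number was 8 at 5 h (0.0675%), 27 at 9 h (0.228%) and 80 at 18 h (0.675%). These were 99 genes in all (0.836%), 51 of them lower and 48 higher in JEPs. At 9 h 23 were lower (0.194%) and 4 higher (0.0338%), and at 18 h 38 were lower (0.321%) and 42 higher (0.354%). With BH alone no gene was called at 1 or 2 h, where 366 (3.09%) and 233 genes (1.97%) had an unadjusted p under 0.05. Genes that were not called may still differ. With BH alone 1 (0.00844%), 2 (0.0169%), 8 (0.0675%) and 25 (0.211%) genes were called at the later times, 29 in all (0.245%). The median response difference of all genes stayed between -0.00 and 0.06, and the median SE of a single response difference was 0.53.

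Levels gave the same course with more calls. Level differences passed in 11 genes before infiltration and in 11 genes at 1 h (0.0928% each), in 7 genes at 2 h (0.0591%) and in 9 genes at 3 h (0.076%). They passed in 21 genes at 5 h (0.177%), 20 of which were lower in JEPs (0.169%). At 9 h they passed in 137 genes (1.16%), with 95 lower (0.802%) and 42 higher (0.354%), and at 18 h in 378 genes (3.19%), with 190 lower (1.6%) and 188 higher (1.59%). Together these were 460 genes (3.88%). Of the 80 genes whose response was called at 18 h, 73 (91.2%) were also called on their level, and these were 19.3% of the genes called on level. Of the 27 at 9 h, 20 (74.1%) were.

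These counts depended on the pairing of samples and on single libraries. Libraries with the same replicate number came from the same experiments. In a fit of the 42 libraries alone, adjusted over JEPs and JEPS alone, the replicate number was a block within each time point. That fit called 302 genes on the response and 1077 on the level, and the same fit with no block called 18 and 304. At 18 h the blocked response calls were 88 lower and 158 higher, and at 9 h 45 lower and 46 higher. Without JEPS replicate 2 at 18 h the response calls at 18 h were 31 lower and 14 higher and the level calls were 140 lower and 74 higher, in place of 190 lower and 188 higher. Without JEPS replicate 1 at 0 h the response calls rose to 43 lower and 7 higher at 9 h and to 66 lower at 18 h. Without replicate 1, 2 or 3 of every group 48, 64 and 15 genes were called on the response. Libraries had been sequenced at a pair of sites, and from the libraries of umn alone 10 genes and from those of tsl alone 17 genes were called on the response, and 38 and 85 on the level. A term for the sequencing lane, in limma-voom, gave 559 response calls.

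**Figure D2:**
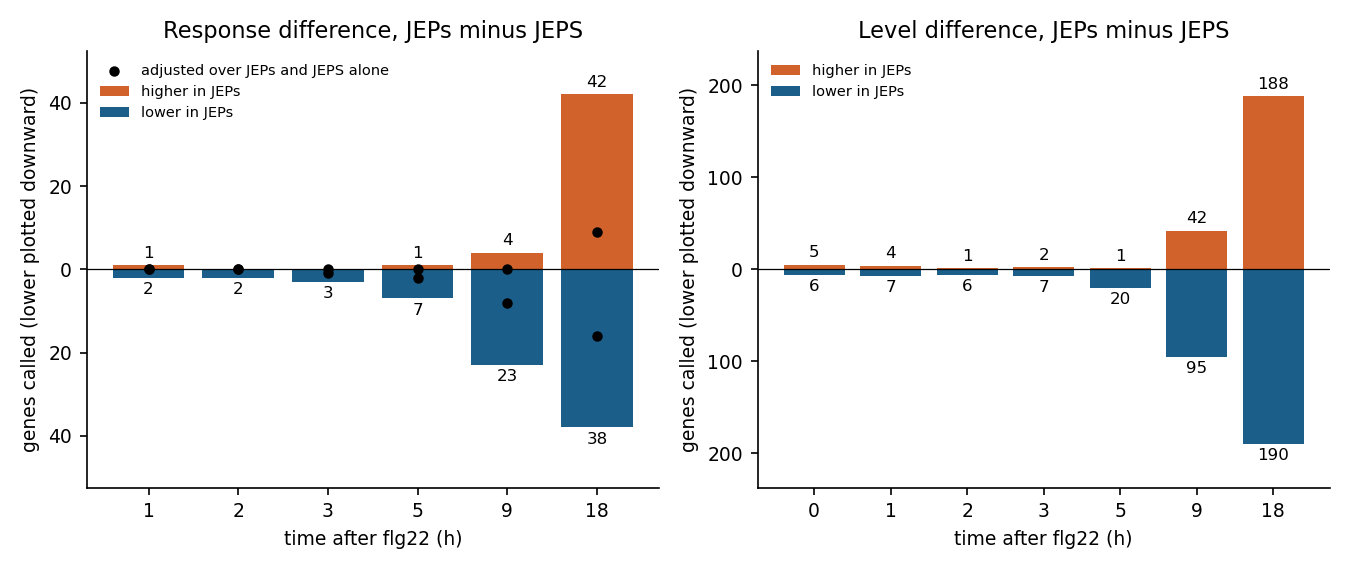
Number of genes called at each time after flg22 for the response difference and for the level difference, JEPs minus JEPS, with lower calls drawn downward and higher calls upward. Black dots are the calls with Benjamini-Hochberg adjustment over JEPs and JEPS alone. Response calls number 2 to 8 up to 5 h, 27 at 9 h and 80 at 18 h.

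The lower calls at 18 h were mostly genes that rose in wild type, few of which rose in sid2-2. Of the 38, 31 rose in JEPS and none fell, with a median response of 2.07. In JEPs 5 rose and 6 fell, with a median of -0.19. Of all genes 16.5% rose and 18.2% fell in JEPS at 18 h, and 11.4% rose and 10.2% fell in JEPs. The 42 higher calls were the mirror image, 39 having fallen in JEPS (median -2.55) and 14 in JEPs (median -0.44). In fls2 the medians were 0.30 and -0.17. At 9 h the 23 lower genes had a median response of 1.74 in JEPS, -0.87 in JEPs and 1.00 in fls2, and 11 of them also rose in fls2 (8.74% of all genes did). Because these genes were picked on the difference between these responses, their medians describe the calls and are no separate test.

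Among the WRKY factors of the SA pathway, transcription factors that bind W-box letters, WRKY70 and WRKY54 were lower in level in sid2-2 at each time from 2 h to 18 h. WRKY70, a factor that promotes SA-dependent and restrains jasmonate-dependent genes, had 544, 462 and 495 normalized counts in JEPS at 3 h and 86.9, 134 and 104 in JEPs. At 9 h it had 1274, 1681 and 1614 in JEPS against 146, 157 and 179 in JEPs. At 18 h it had 2274, 3788 and 2298 in JEPS against 84.6, 401 and 130.4 in JEPs. The genotypes overlapped at 0 h (564, 201 and 218 in JEPS, 286, 289 and 507 in JEPs) and at none of these later times. The response difference was -2.38 ± 0.65 at 3 h (q = 0.0457, BH alone 0.211, q above 0.05 without JEPS replicate 2 at 18 h at -2.39), -2.59 ± 0.64 at 5 h (q = 0.019, BH alone 0.101), -3.42 ± 0.63 at 9 h (q = 0.000283) and -3.87 ± 0.64 at 18 h (q = 2.00e-05). WRKY70 also rose in fls2 up to 9 h (1521, 2079 and 707) and was at 916, 767 and 709.6 there at 18 h. The WRKY70 response at 18 h was 3.13 ± 0.44 in JEPS and -0.74 ± 0.46 in JEPs.

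WRKY54, the closest relative of WRKY70, had 779, 641 and 868 normalized counts in JEPS at 18 h and 15.4, 37.5 and 3.26 in JEPs. Its level was lower in JEPs from 2 h (-2.10) through 5 h (-3.09) to 18 h (-5.23 ± 0.65, adjusted p = 5.65e-12). Its response difference passed only at 18 h (-4.05 ± 0.95, q = 0.0112, BH alone 0.0714). WRKY18, which acts with WRKY40 and WRKY60, had 1447, 2156 and 1153 in JEPS and 292, 343 and 232 in JEPs at 18 h (level difference -2.45 ± 0.43, adjusted p = 7.18e-05). Of the 12 WRKY genes listed, 8 were tested. All 8 rose in JEPS at 18 h and 5 rose in JEPs, beside 16.5% and 11.4% of all genes. At 18 h 4 of the 8 were lower in level in JEPs, beside 1.6% of all genes. Over the time course 6 were lower at 1 time or more (2.01% of all tested genes were), namely WRKY70, WRKY54, WRKY18, WRKY53, WRKY40 at 9 h and WRKY60 at 0 h. Without JEPS replicate 2 at 18 h WRKY53 was at -0.97 and no longer called. The median response difference of the 8 at 18 h was -1.80, against 0.06 for all genes.

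Genes used as readouts of SA gave some of the largest differences, and that of PCC1 was the largest among the lower calls at 18 h. PCC1, a small protein of defense and flowering time that is named for its pathogen and circadian control, had 5782, 6824 and 8373 normalized counts in JEPS at 18 h and 30.8, 40.4 and 3.26 in JEPs. It rose in JEPS (1.98) and dropped in JEPs (-4.65) from 0 h, and the difference was -6.63 ± 1.04 (q = 2.33e-06, BH alone 1.69e-05). In fls2 the PCC1 values at 18 h were 3223, 1744 and 4079, between those of the other genotypes. The PCC1 level difference was -3.22 at 5 h, -4.15 at 9 h and -8.15 ± 0.85 at 18 h (adjusted p = 2.19e-13). AT3G22235, its neighbor, had 2937, 4297 and 3203 in JEPS and 23.1, 28.8 and 19.6 in JEPs at 18 h, a response difference of -5.87 ± 0.96 (q = 5.43e-06), and was already lower in level at 3 h (-3.16).

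LURP1, a gene named for its late rise during downy mildew infection, had 6319, 5822 and 6065 normalized counts in JEPS at 18 h and 30.8, 153 and 6.52 in JEPs, with no overlap. Its level difference at 18 h was -6.45 ± 0.64 (adjusted p = 4.59e-13), and its response difference was -3.76 ± 0.91 (q = 0.0148, BH alone 0.0913). LURP1 was also called at 0 h (-2.69 ± 0.65, adjusted p = 0.0128), and without JEPS replicate 1 at 0 h this was -0.64 and was not called. ECS1, which codes for a cell wall protein, had 31718, 49164 and 50025.0 in JEPS and 5900.0, 16039 and 8948 in JEPs at 18 h (response difference -2.07 ± 0.39, q = 0.000241). ACD6, an ankyrin-repeat membrane protein that raises SA signaling, had 4219, 3275 and 4378 in JEPS and 1039, 1160 and 1158 in JEPs (-1.71 ± 0.46, q = 0.0435, BH alone 0.201). The ACD6 call was lost without JEPs replicate 2 at 18 h, at -1.74. WAK1, a wall-associated kinase, had 1863, 1754 and 1568 in JEPS and 300.0, 522 and 261 in JEPs, with a level difference of -2.24 ± 0.39 (adjusted p = 5.13e-05) and a response difference of -1.81 that was not called (q = 0.13). Of 14 SA output genes listed, 9 were tested, 4 were lower in response and 5 in level at 18 h, and none was higher, beside 0.321% and 1.6% of all genes lower. With BH alone 2 were lower in response, ECS1 and PCC1. The median response difference of the 9 was -1.81. PR2, PR5, AED1 and SAG13 were tested too and were called neither in response nor in level at any time.

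Of 11 genes of SA synthesis and its control, 8 were tested. PBS3 was lower in level early, at 1 h (226, 32.6 and 65.5 normalized counts in JEPS against 16.2, 16.7 and 2.8 in JEPs, -3.24 ± 0.96, adjusted p = 0.0287) and 2 h (-3.07 ± 0.83, adjusted p = 0.0198). SARD1, a transcription factor that drives SID2, was lower at 9 h (-1.87, adjusted p = 0.0166) and at 18 h, where it had 576, 503 and 643 in JEPS against 76.9, 185 and 134 in JEPs (-2.07 ± 0.46, adjusted p = 0.00436). SID2, EDS5, PBS3, SARD1, CBP60G and PAL1 rose in JEPS at 18 h, and these genes other than SID2 rose in JEPs as well. Of all genes 16.5% rose in JEPS and 11.4% in JEPs. No response difference of the list was called, and its median at 18 h was -0.45.

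Among genes that act on SA or answer it through NPR1, no response difference was called, and 2 genes of SA modification and 3 of the NPR and TGA list were lower in level at 1 time or more, beside the 2.01% of all genes. DMR6, which hydroxylates SA, had 1698, 3437 and 2638 normalized counts in JEPS at 18 h and 223, 591 and 245 in JEPs (level difference -2.85 ± 0.46, adjusted p = 1.16e-05), and was lower from 5 h (-2.37). UGT74F2, a glucosyltransferase of SA, was lower at 9 h (-1.28, adjusted p = 0.0416), a call lost without JEPS replicate 2 at 18 h. These were the only 2 tested of 7 genes of SA modification. NIMIN-2, a protein that binds NPR1, had 663, 448 and 393 in JEPS at 18 h and 15.4, 23.1 and 9.78 in JEPs. Its level difference grew from -2.65 at 3 h through -3.38 and -3.48 to -4.89 ± 0.76 at 18 h (adjusted p = 2.83e-08). NPR3, an SA receptor that represses the response, had 518, 331 and 513 in JEPS and 61.5, 136 and 189 in JEPs (-1.75 ± 0.32, adjusted p = 6.60e-05). NPR1 had 334, 778 and 348 in JEPS and 177, 289 and 163 in JEPs (-1.19 ± 0.31, adjusted p = 0.0271). The high NPR1 value was that of JEPS replicate 2, and without it the difference was -0.68 and was not called. The 6 other tested genes of the 13 in the NPR and TGA list were not called, and the median level difference of the 9 was -0.45.

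In the EDS1 and PAD4 node, all 7 listed genes rose in JEPS at 18 h and 5 in JEPs, beside 16.5% and 11.4% of all genes. All 7 response differences were below 0 (median -1.16), as were 46.1% of all genes, and none was called. The only level call was AT3G48080, the neighboring copy of EDS1 (-2.77 at 18 h), whose reads cannot be split with certainty from those of EDS1. ER chaperones, which fold secreted proteins such as PR1, all rose in both genotypes at 18 h (11 of 11 tested). Of these, 5 were lower in level in JEPs, beside 1.6% of all genes, and no response difference was called. CRT3, a calreticulin, had 2071, 2009 and 1900.0 in JEPS and 739, 1053 and 714 in JEPs (-1.25). The others were CRT1b, CNX1 (-1.24), SDF2 and ERDJ3B, of which SDF2 was not called without JEPS replicate 2 (-1.0). The median level difference of the 11 at 18 h was -1.17, against 0.03 for all genes. All 11 level differences were below 0 before infiltration too (median -0.48, none called), and the median response difference of the list was 0.74 at 2 h, 0.60 at 3 h and -0.61 at 18 h. Among 7 tested cysteine-rich receptor-like kinases, CRK5 was lower in response at 9 h (-1.78), beside 0.194% of all genes. CRK6 and CRK45 were lower in level at 18 h, beside 1.6% of all genes. AT5G52810 (SARD4), of pipecolic acid synthesis, was lower by level (-1.33), and not called without JEPS replicate 2 (-1.24).

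None of 9 tested jasmonate response genes passed in either direction for the response, nor did the single tested genes of the joint jasmonate and ethylene output and of camalexin synthesis. Of all genes 0.836% passed at 1 or more times, so lists this short cannot show that their genes were unaffected. PAD3, the last enzyme of camalexin synthesis, had a response difference of -3.30 at 18 h that was not called. Of 7 tested early flg22 markers, NHL10 alone was lower in level, at 18 h (-1.89, adjusted p = 0.0313), where 1.6% of all genes were.

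Of the 119 listed genes, 39 did not pass the filter as applied here, because too many libraries held none of their reads, and among them was PR1, the most used marker of SA. PR1 (chromosome 2, 6241640 to 6242541, minus strand) had 572, 399 and 1738 reads in JEPS at 9 h and 1, 10 and 6 in JEPs. At 18 h it had 1531, 3866 and 4588 reads in JEPS against 2, 108 and 0 in JEPs. At 0 h JEPs had 0, 0 and 0 reads and JEPS 124, 2 and 26. Fitted without the filter, the PR1 level difference was -7.79 at 9 h (adjusted p = 7.84e-08) and -6.71 at 18 h (adjusted p = 1.02e-07). The PR1 response difference was 1.59 at 9 h and 2.67 at 18 h and was not called (q = 1), and with no reads in JEPs at 0 h these fitted values are no bound. WRKY62 had 159, 149 and 156 reads in JEPS at 9 h and 0, 6 and 4 in JEPs, and WRKY38 106, 56 and 129 against 2, 0 and 0. UGT76B1, a glucosyltransferase of SA and isoleucic acid, had 555, 329 and 469 against 28, 27 and 11. NIMIN1 had 66, 26 and 97 reads at 18 h against 0, 1 and 3, and GRXS13, a glutaredoxin, 87, 79 and 218 against 2, 4 and 1. DLO1, which hydroxylates SA, had 18, 75 and 89 reads at 18 h against 0, 10 and 0. All JEPs libraries lay below all JEPS libraries in 13 of the 39 at 9 h and 12 at 18 h, against 7.48% and 10.2% of tested genes, and above all of them in 4 at 9 h and 3 at 18 h, against 7.93% and 12.5%. In the fit without the filter 9 of the 39 were lower in level at each of these times, beside 0.499% and 0.845% of all genes there. In response only GRXS13 was lower, at 9 h (-5.81) and at 18 h (-6.79), beside 0.0609% and 0.0951% of all genes. PDF1.2, a defensin of jasmonate and ethylene, was higher in level at 9 h, as were 0.198% of all genes (+2.17, adjusted p = 0.0335). It had 97, 174 and 50 reads in JEPs at 9 h and 12, 11 and 26 in JEPS. At 0 h PDF1.2 already had 244 summed reads in JEPs and 138 in JEPS, a level difference that was not called. The PDF1.2 response difference at 9 h was 0.67 and was not called, so the higher level is no called change in response. At 18 h FMO1 and ALD1, of pipecolic acid signaling, did not separate the genotypes, with 13, 17 and 14 reads of FMO1 in JEPS and 2, 32 and 4 in JEPs. At 2 h FMO1 had 63 summed reads in JEPS and 1 in JEPs and was lower in level in the fit without the filter (-5.04, adjusted p = 0.00943). ALD1 had 22 and 2 summed reads at 3 h and was not called there (-2.73). CYP71A12, of camalexin synthesis, was lower in level at 2 h in the same fit (-2.29, adjusted p = 0.0455).

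Among genes with no listed SA role, AT3G29240 was lower in JEPs at 3, 5, 9 and 18 h, and not at 0, 1 or 2 h. It had 950.0, 774 and 876 normalized counts in JEPS and 970, 848 and 727 in JEPs at 0 h. At 5 h it had 541, 694 and 374 in JEPS and 47.7, 109 and 65.2 in JEPs, and at 18 h 1553, 2105 and 1523 against 315, 372 and 313. Its response at 5 h was -0.69 in JEPS, which was not called, and -3.49 in JEPs, and at 18 h it was 1.00 in JEPS, also not called, and -1.34 in JEPs. The response difference was -2.36 ± 0.44 at 3 h (q = 0.000168), -2.79 ± 0.43 at 5 h (q = 2.11e-06), -2.49 at 9 h (q = 1.14e-05) and -2.34 at 18 h (q = 6.13e-05). AT1G19960 (-3.64 ± 0.59, q = 1.10e-05 at 18 h), MLO2 and the ankyrin-repeat gene ANK (-3.10 ± 0.63 at 18 h) are further lower genes chosen after their values were seen. MLO2, the membrane protein that powdery mildew needs to enter cells, had 2405, 2670 and 2360.0 in JEPS at 18 h and 585, 733 and 541 in JEPs. Its response difference of -2.20 ± 0.32 had the smallest q of that time (3.48e-07). NAC102 (-2.26) and ATAF2 (-1.56), both NAC transcription factors, STT3A (-1.49), a subunit of the oligosaccharyltransferase of the ER, and MKK2 (-1.50), a kinase of the MAP kinase pathway, were also lower at 18 h and likewise were picked from the called genes.

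Some calls before 9 h came from the 0 h libraries, and the later sets also held genes that differed at 0 h. Of the 27 genes called at 9 h, 2 were called on level at 0 h and 9 had an unadjusted p under 0.05 there. Of the 80 at 18 h these numbers were 4 and 13, beside 0.0928% and 3.06% of all genes. MRD1 was higher in JEPs at all 7 times, with 100.0 to 497 normalized counts in JEPs, 0 to 27.3 in JEPS and 0 to 111 in fls2, and a level difference of 5.1 ± 0.89 at 0 h (adjusted p = 5.64e-09). LECRKA4.1, a lectin receptor kinase, was higher in JEPs at 0 h (3.12, adjusted p = 0.0341), which gave response differences of -3.27, -3.20 and -3.23 at 1, 2 and 5 h while levels after flg22 were not called. WRKY60 was lower in JEPs at 0 h (50, 35.5 and 44.7 in JEPS, 6.98, 7.41 and 6.67 in JEPs, -2.52 ± 0.68, adjusted p = 0.00501) and so had a response difference of 2.74 ± 0.78 at 1 h (q = 0.0239). GPP1 (-1.60 at 3 h, q = 0.049) belonged to the same kind. AT5G55450 was lower at 0 h (-3.63 ± 0.90, adjusted p = 0.00109). LTP4, a lipid transfer protein, was called at 0 h (5.19, adjusted p = 0.0289) and at 9 h (response difference -6.44) on 1 JEPs library of 156 normalized counts at 0 h. Without JEPS replicate 1 at 0 h AT5G55450 (-1.91), LECRKA4.1 (2.89) and LTP4 (4.96) were no longer called at 0 h, nor were LECRKA4.1 at 1 h (-3.04) and 5 h (-3.0) and LTP4 at 9 h (-6.21). With the replicate block within each time point the response calls of WRKY60 (2.72 at 1 h), GPP1 (-1.56), LTP4 (-5.95), LECRKA4.1 (-2.77 at 1 h, -2.75 at 5 h), AT5G65490 (-3.67), CRK5 (-1.78) and KCS2 (2.96) were lost, as was the 0 h level call of LECRKA4.1 (2.64).

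Among the other response calls at 1 to 9 h, AT1G56180 had 66, 43.6 and 34.8 normalized counts in JEPS at 2 h and 13.3, 8.11 and 13.6 in JEPs (-2.20 ± 0.60, q = 0.0296). AT5G65490 was lower at 1 h (-3.65 ± 1.41, q = 0.0328) and AT2G36630 at 5 h (-2.72 ± 0.84, q = 0.0465, not called without JEPS replicate 2 at 18 h, also at -2.72, nor was GPP1 at -1.60). KASI, a fatty acid synthase of the plastid, was higher at 5 h by 1.07 ± 0.29 (q = 0.0415), with 1.05, 1.05 and 1.08 in the 3 replicate numbers, and not called without JEPS replicate 1 at 0 h (1.06). At 9 h AT1G64710 (2.5 ± 0.65, q = 0.0202) and AT3G28270 (2.26 ± 0.64, q = 0.049) were higher. AT3G28270 was not called without JEPS replicate 1 at 0 h (2.27) or without JEPS replicate 2 at 18 h. ATCG01060, the chloroplast gene psaC, had the largest higher call at 9 h (9.15), which rested on single libraries: 7526 normalized counts in JEPS replicate 3 at 0 h and 3074 in JEPs replicate 2 at 9 h.

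Genes higher in sid2-2 at 18 h were mostly genes that had fallen from 0 h in wild type. UBC17, a ubiquitin-conjugating enzyme (chromosome 4, 17201922 to 17202988, plus strand), had 4.84, 0 and 7.5 normalized counts in JEPS and 23.1, 69.2 and 68.5 in JEPs. Its 0 h values were 64.3, 15.8 and 55.3 in JEPS and 27.9, 18.5 and 33.3 in JEPs, which overlap, and the response difference was 4.24 ± 1.05 (q = 0.00254, BH alone 0.0145). HAT1, a homeodomain factor, had 0, 0 and 10 in JEPS and 30.8, 14.4 and 68.5 in JEPs (3.17 ± 1.00, q = 0.0424). KCS2, an elongase of very-long-chain fatty acids, had 9.68, 0 and 5 in JEPS and 23.1, 80.8 and 29.3 in JEPs (3.07 ± 0.96, q = 0.0449, BH alone 0.207). These fitted values rest on few reads and on single libraries, and the calls of HAT1 (2.78) and KCS2 (2.67) were lost without JEPS replicate 2 at 18 h, that of HAT1 (3.00) without JEPS replicate 1 at 0 h and that of KCS2 (2.25) without JEPs replicate 2 at 18 h.

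More abundant genes of the same group, chosen after their values were seen, separated the genotypes with smaller errors. BAM2, a receptor kinase of the CLAVATA1 family, had 58.1, 40.7 and 50 normalized counts in JEPS at 18 h and 192, 136 and 235 in JEPs (2.43 ± 0.41, q = 1.45e-05, BH alone 6.66e-05). KCS1, another elongase, had 121, 30.5 and 113 in JEPS and 331, 202 and 313 in JEPs (1.65 ± 0.37, q = 0.00419). CYP86A2, a fatty acid hydroxylase of cutin synthesis, had 465, 249 and 218 in JEPS and 1446, 579.8 and 815 in JEPs (1.65, q = 0.00601). Lhca6, an antenna protein of photosystem I, had 77.4, 61 and 108 in JEPS, 369, 413 and 375 in JEPs and 1152, 1233 and 1356 in fls2 (1.88 ± 0.46, q = 0.0127). Chloroplast proteins among the higher calls included HSP93-III (2.07), a chaperone of protein import, CHLI2 (1.81), a subunit of magnesium chelatase, LPA2 (2.27), which helps to assemble photosystem II, NdhU (1.42) and ATS1 (1.59), an acyltransferase. None of the 42 was tested for a shared function.

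**Figure D3:**
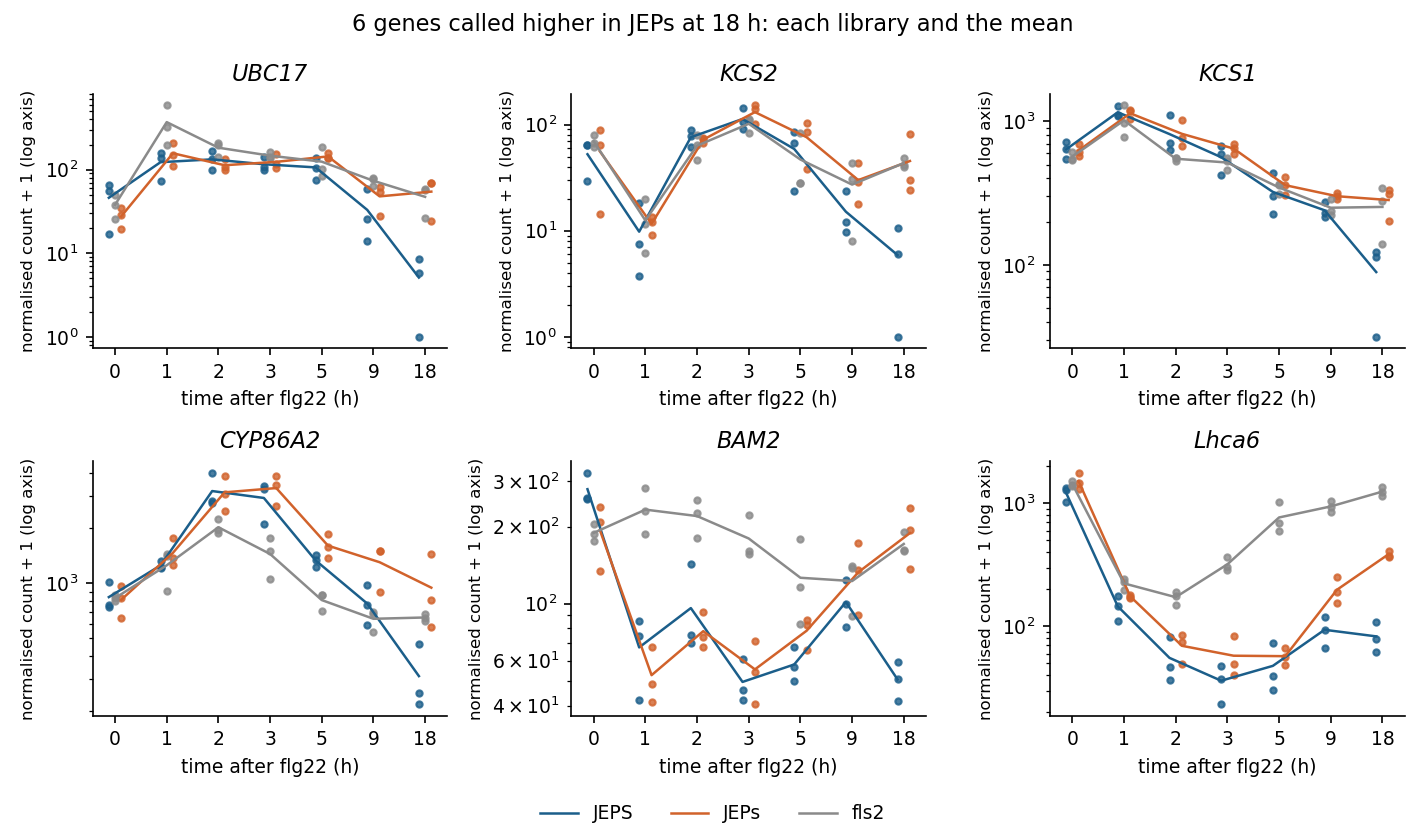
Normalized counts plus 1 (log axis) against hours after flg22 for UBC17, KCS2, KCS1, CYP86A2, BAM2 and Lhca6. Each point is 1 library, lines join the means of 3 replicates, and colors mark JEPS, JEPs and fls2. At 18 h BAM2 is at 40.7 to 58.1 in JEPS and at 136 to 235 in JEPs, and Lhca6 in JEPs lies between JEPS and fls2.

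The late difference was also seen as a weaker response over many genes. To avoid picking genes on the libraries compared, classes were taken from jEPS (dde2-2, which lacks the jasmonate sector) against fls2, a choice made after seeing the data. The choice is not neutral, because jEPS has the SA sector, as JEPS does and JEPs does not. Responses that need SA can enter the classes, which leans their medians toward a weaker response in JEPs. No class was taken from a genotype without the SA sector. At 18 h 1513 genes were called higher (12.8% of genes tested) and 1952 lower (16.5%) in jEPS than in fls2. The higher class had a median response of 1.62 in JEPS, 1.12 in JEPs and -0.01 in fls2. Its median response difference was -0.46, with -0.39, -0.41 and -0.57 in the 3 replicate numbers, and 76.6% of its genes lay below 0, against 46.1% of all genes. The lower class had a median response of -1.61 in JEPS, -0.96 in JEPs and -0.10 in fls2, a median difference of 0.67 (0.69, 0.65 and 0.73), and 9.27% of its genes lay below 0. At 9 h the medians of the classes were -0.20 (0.05, -0.45 and -0.24) and 0.38 (0.31, 0.53 and 0.25), so the higher class did not differ in the same direction in all replicate numbers. At 1 to 5 h both medians lay between -0.07 and 0.15. Of the 1513 genes 28 were called lower singly and none higher, and of the 1952 genes 36 were called higher and 1 lower. The number of genes that rose or fell from 0 h at 18 h was 4120 (34.8%) in JEPS, 2559 (21.6%) in JEPs and 503 (4.25%) in fls2, whereas at 1 h it was 6511 (55%), 6285 (53%) and 4543 (38.3%).

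**Figure D4:**
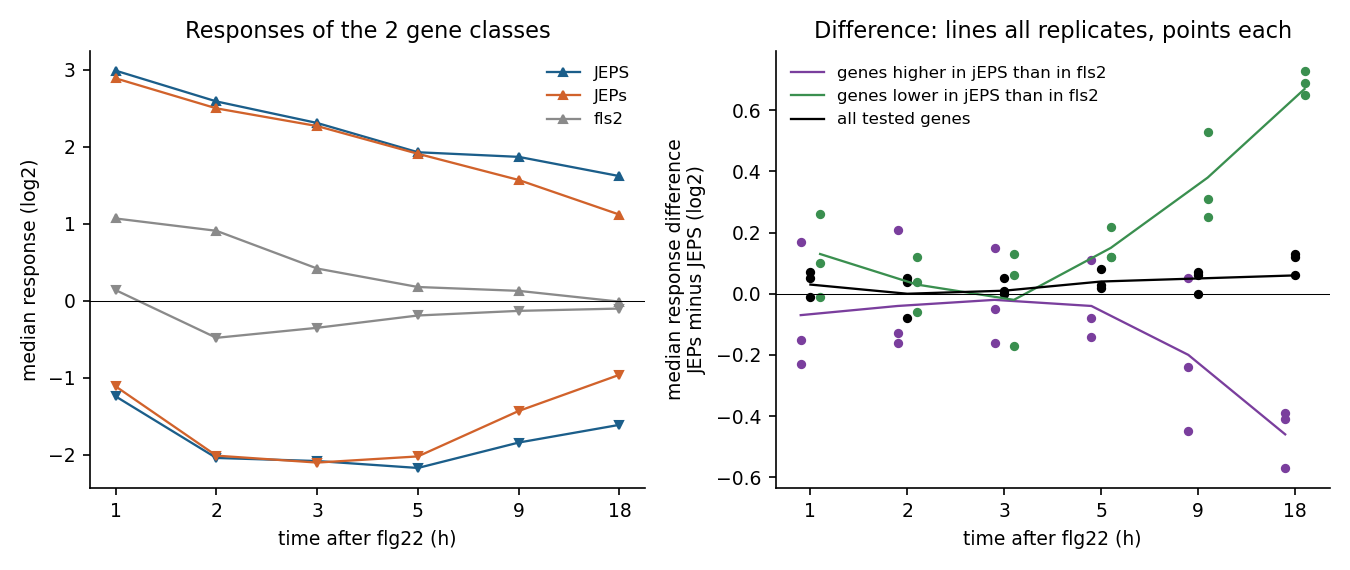
Left, median log2 response of genes higher (upward triangles) or lower (downward triangles) in jEPS than in fls2, against hours after flg22, in JEPS, JEPs and fls2. Right, median response difference of the same classes, JEPs minus JEPS, with a point for each replicate number. The difference at 18 h is -0.46 for the higher class and 0.67 for the lower class, and near 0 at 1 to 3 h.

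The genes called at 18 h were looked up where sid2-2 was added to 3 other mutants, in libraries that the comparison of JEPs with JEPS does not use. Of the 38 lower genes, 37 had a negative response difference in dde2-2 plants (median -1.68), 36 in ein2-1 plants (-1.21) and 38 in pad4-1 plants (-1.47), where the medians of all genes were 0.06, 0.10 and 0.02. They were called lower in 21, 4 and 16 cases, beside 0.439%, 0.0338% and 0.321% of all genes. The 1 gene above 0 in dde2-2 plants was LECRKA4.1. Of the 42 higher genes, 42, 41 and 41 had a positive difference (medians 1.69, 0.99 and 1.03) and 16, 1 and 2 were called higher, beside 0.819%, 0.00844% and 0.0338% of all genes. No gene of either set was called in the opposite direction. Whether the smaller medians in ein2-1 plants differ from those in wild type was not tested.

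**Figure D5:**
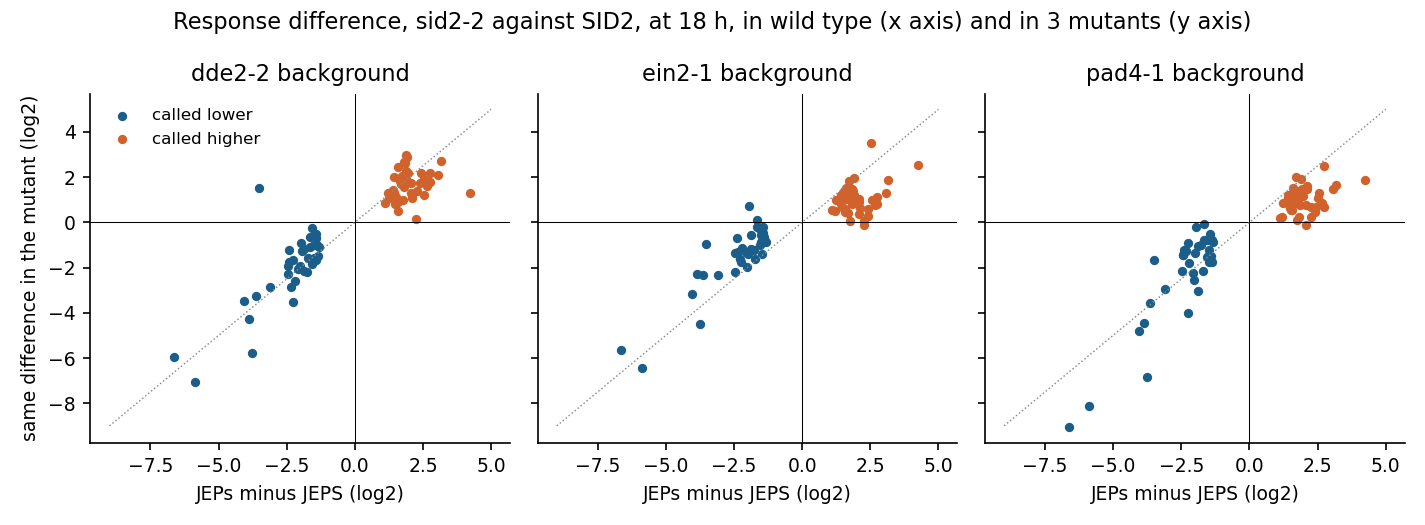
Response difference at 18 h of the 80 genes called between JEPs and JEPS (x axis, log2) against the same difference of sid2-2 from SID2 in dde2-2, ein2-1 and pad4-1 plants (y axis, log2). Each point is 1 gene and the dotted line marks equal values. Of the 38 lower genes 37, 36 and 38 lie below 0 on the y axis, and of the 42 higher genes 42, 41 and 41 lie above it.

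PAD4 acts in the same part of immunity, so the responses of sid2-2 and pad4-1 (JEpS) were compared directly, with no wild type library. No gene was called up to 5 h by edgeR's quasi-likelihood test. At 1, 2, 3 and 5 h 292 (2.46%), 232 (1.96%), 191 (1.61%) and 180 genes (1.52%) had an unadjusted p under 0.05. At 9 h 18 genes (0.152%) and at 18 h 24 genes (0.203%) had a lower response in JEPs than in JEpS and none had a higher one, 29 genes in all. Among the 13 genes called at both times were WRKY70 (-3.02 at 9 h, -3.37 at 18 h), PCC1 (-5.10 and -8.71), LURP1 (-5.15 and -7.19), AT3G22235 (-4.99 and -7.08), ECS1 (-1.72 and -2.0) and ACD6 (-2.33 and -2.78). MLO2 (-1.54 and -1.85) and AT1G19960 (-2.72 and -4.08), named above after their values were seen, were also called at both times, as was ANK (-3.41 and -3.65). The other 4 were PCR1, AT1G49750, SVL2 and AT2G41090. For the summed reads of 3 libraries at 18 h, PCC1 had 19 in JEPs and 4095 in JEpS. Each difference from JEpS holds the response and 0 h level of JEpS too. Against JEPS at 9 h, LURP1 (-1.73), PCC1 (-2.63) and ACD6 (-1.12) had smaller differences that were not called. WRKY70 (-3.42), AT3G22235 (-3.40) and ECS1 (-1.55) were called there. At 18 h all of these were called against JEPS, with LURP1 at -3.76 and PCC1 at -6.63.

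The promoters of the lower genes held TGACG more often than those of all tested genes. With windows of 250 bases before to 50 after the start, TGACG was present on either strand in 24.1% of 11689 tested genes with a window, in 56.5% of the 23 genes lower in response at 9 h, in 39.5% of the 38 lower at 18 h and in 21.4% of the 42 higher at 18 h. TTGAC was present in 51.6%, 78.3%, 63.2% and 28.6%. Of 189 genes lower in level at 18 h, 32.3% held TGACG and 61.9% TTGAC, and of 187 higher in level 20.9% and 43.9% did. The 27 genes called on the response at 9 h and the 80 at 18 h share 13 genes. In the 250 bases before LURP1 and PR1 there was no TGACG, and those before PR1 held TTGAC 1 time. A match of these letters is a description of the sequence and was not tested as a binding site. PCC1 and AT3G22235, whose windows overlap in sequence as shown above, count as 2 genes here.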

How the data were processed

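The authors sequenced 357 stranded Tag-Seq libraries (17 genotypes, 7 times, 3 replicates), used only reads with an exact barcode, removed homopolymer reads, mapped the rest to TAIR10 transcripts with Bowtie 0.12.8 and counted forward-strand reads that matched a single gene. The deposited values are these raw read counts, with no normalization. All columns were matched to a sample, and 0 columns were left unused. JEPs and JEPS were selected by their concise genotype names.

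Counts were fitted with edgeR 4.0.16 (quasi-likelihood test, R 4.3.3) with 1 mean for each of 119 groups of all libraries, a 90th percentile offset, and the study's stated filter (fewer than 50 libraries without a read and a 15th largest count above 25). On the deposited table it kept 11848 genes of 33600, fewer than the study states, so genes that failed it here, PR1 among them, may have been analysed there. The cause was not tested. Calls needed q or adjusted p under 0.05 and an absolute log2 difference above 1. Response differences from JEPS took Storey q-values pooled over 90 comparisons (the null share was 1, so they equal Benjamini-Hochberg values). Level differences were adjusted with Benjamini-Hochberg over genes and 7 times, and the other comparisons over genes and 6 times. The quasi-likelihood test stands in place of the study's z-test. Differences within a replicate number used a pseudocount of 1. The procedure was tested on simulated data.

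Named genes are SID2, called members of fixed lists, the 3 largest lower and higher response differences at each time with the same sign in all 3 replicate numbers, and the 3 largest level differences at 0 h. Genes outside this rule carry a mark in the text that their values were known when they were picked. Members, lists and tests were chosen with earlier results of these data known. Replicate numbers were taken to pair samples because the infiltration schedules place every genotype in each experiment and each experiment under 1 number. In the counts, deviations from group means correlated in all 21 same-number pairs (r from 0.17 to 0.61, median 0.32), and every library correlated best with its own number. JEPS and JEPs shared a lane in 13 of the 21 pairs, and 24 of the 42 libraries were sequenced at umn and 18 at tsl. No pair of replicates was as close as counting noise (lowest chi-square per degree of freedom 2.5).

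Alternatives were TMM, no filter, 42 libraries with and without a replicate block, DESeq2 1.42.0, limma-voom (limma 3.58.1) with and without a lane term, each sequencing site, each replicate left out, other adjustments and no fold threshold, and, chosen after seeing the data, trended dispersions and leaving out 4 single libraries. Coordinates and windows come from TAIR10.1, where 32835 gene codes were found. The windows were cut from the genome and its annotation, since no promoter table was used here.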

Additional observations from a re-analysis of the deposited data

Results flagged for a closer look

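The results below are gene responses that differed between the single mutants sid2-2 and pad4-1 by a test of the difference itself (edgeR's quasi-likelihood test, Benjamini-Hochberg adjustment), among genes named in the report. All of them were lower in JEPs than in JEpS. At 9 h the response differences, JEPs minus JEpS on the log2 scale, were -5.15 for LURP1, -5.10 for PCC1, -4.99 for AT3G22235, -3.02 for WRKY70, -2.33 for ACD6, -1.95 for AT3G29240 and -1.72 for ECS1. At 18 h they were -8.71 for PCC1, -7.19 for LURP1, -7.08 for AT3G22235, -5.31 for WRKY54, -3.37 for WRKY70, -2.78 for ACD6, -2.75 for WAK1 and -2.0 for ECS1. Each value holds the response and 0 h level of JEpS too. Against JEPS, LURP1 (-1.73), PCC1 (-2.63) and ACD6 (-1.12) were not called at 9 h, nor was WAK1 (-1.81) at 18 h. The split of reads between the neighboring copies PCC1 and AT3G22235 is uncertain. No group of these libraries has the 4 samples that a search for a single outlying sample needs.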

How the results depend on the processing

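The number of genes whose response differed between JEPs and JEPS at any time (99) was within 1.5 times with TMM (102), without the filter (66), with limma-voom (133), with trended dispersions (87) and with no fold threshold (101). It was 18 from the 42 libraries alone with no replicate block, 21 with a replicate block there, 302 with a replicate block within each time point and 624 with the same block in limma-voom. It was 30 with DESeq2, 559 with a lane term in limma-voom, 10 and 17 from the libraries sequenced at umn and at tsl alone, 29 and 65 with Benjamini-Hochberg adjustment over JEPs and JEPS alone and within each time point, and 63 without JEPS replicate 2 at 18 h. Leaving out a replicate number or 1 of 4 single libraries gave 15 to 136. The count of level differences (460) was 304 from the 42 libraries with no replicate block and 1077 with a replicate block within each time point (1011 in limma-voom), 861 with a lane term, 38 and 85 at umn and tsl alone, 761 with adjustment within each time point, 296 without JEPS replicate 2 at 18 h and 142 to 508 over all fits with a replicate number or 1 library left out. The count for JEPs against JEpS (29) was 80 with a lane term, 64 with the replicate block in limma-voom, 7 at tsl, 0 at umn (1617 genes with an unadjusted p under 0.05 there at 1 or more times) and 9 to 31 with a replicate number or 1 library left out. The site and leave-one-out fits hold fewer libraries, and for the other settings the cause was not tested. Similar counts did not always hold the same genes. Of the 99 genes, 54 were among the 66 called without the filter, 95 among the 102 with TMM and 84 among the 133 with limma-voom. Of the 302 called with the replicate block within each time point, 86 were among the 99. That block changed no call of the named results other than those given in the report. No named result reversed its direction. Of 53 named gene results, 53 kept their call with TMM, 39 without the filter and 34 with DESeq2. From the 42 libraries alone 26 kept it with no replicate block, 31 with a block and 44 with the block within each time point. The call was kept by 14 of 48 at tsl, 8 of 51 at umn, and 17 of 50, 29 of 51 and 14 of 53 without replicate 1, 2 and 3. With libraries left out, 12 values are not given because both groups were at 3 reads or fewer. Few reads limit, among the named genes, KCS2, HAT1, UBC17, LTP4, AT5G65490 and SID2 at 0 h.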

Other observations

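Cutin and wax genes, which build the waterproof cover of the leaf, were collected as a list of 28 genes after KCS1, KCS2, GPAT4 and CYP86A2 had been seen among the higher calls, so the list is no independent evidence of its direction. Of its 21 tested genes, these 4 were higher in response in JEPs at 18 h and none was lower, beside 0.354% of all genes higher (with BH alone KCS1 and CYP86A2 remained). The differences ranged from 0.19 to 3.07 with a median of 1.01, against 0.06 for all genes. In JEPS 15 of the 21 fell from 0 h to 18 h (median response -1.28), and in JEPs 6 fell (median -0.29). Level differences at 18 h were called higher in 10 genes, CER3, CER6, KCS1, KCS2, LACS1, LACS2, GPAT4, CYP86A2, ABCG32 and LTPG1, beside 1.59% of all genes, with a median of 1.18. At 0 h none was called and the median was 0.10. In the direct comparison of JEPs with JEpS none of the 21 was called at 18 h, and the median was 0.46.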
